A study of Mus musculus with 10 samples.

Results

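Prox1, Foxc2, Foxp2, Gata2, Sox18, Nr2f2, Nfatc1, Hhex and Tbx1 encode transcription factors that act in lymphatic endothelial fate or in lymphatic valves. These 9 genes were taken by name from the 46517 Ensembl genes of each count table, and all 9 were found by their Ensembl identifier. The tables hold Smart-Seq2 read counts of single endothelial cells, lymphatic (LECs) and blood vascular (BECs), which were sorted on Podoplanin and CD31 from the ear skin of mice aged 5 wk. The mutant mice (n = 5) were Cre+ Pik3caH1047R;Cdh5-CreERT2 animals, whose ears received 4-OHT at 3 wk of age. Cdh5 drives the inducible Cre in blood and lymphatic endothelium alike, so both cell classes can carry the activated PI3K catalytic subunit, and cells without recombination can remain among them. The control mice (n = 2) were of different kinds: control 1 was an untreated C57BL/6J mouse, and control 2 was a 4-OHT-treated Cre- littermate of the Pik3caH1047R;Cdh5-CreERT2 strain. A further Cre- mouse was not analysed here.

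PROX1 is the homeodomain factor that specifies and maintains LEC identity. During development SOX18 and NR2F2 (COUP-TFII, also a determinant of venous identity) switch on Prox1 in embryonic veins, and HHEX, a homeodomain factor, acts upstream of Prox1 as well. Lymphatic valves form where LECs raise PROX1, GATA2 and the forkhead factor FOXC2, with NFATC1, the calcineurin-regulated factor, acting together with FOXC2. FOXP2, another forkhead factor, marks collecting vessels, and TBX1, a T-box factor, is needed for lymphatic vessel growth.

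A cell was called LEC where the CPM (a gene's reads scaled to a fixed total of reads per cell) of Prox1, Flt4 and Mmrn1 together exceeded that of Flt1, Emcn and Podxl, and BEC in the opposite case. Of the 3248 cells kept, 1700 were LECs, 1542 BECs and 6 neither. Among LECs, 231 valve LECs had Cldn11 at 300 CPM or more, 204 collecting vessel LECs had more Mmrn2 than Lyve1, and 544 Ptx3 LECs had Ptx3 at 100 CPM or more. The remaining 808 LECs met no such rule, and 80 cells met more than 1. The valve and collecting sets were described by markers that their rules did not use. No such markers are given here for Ptx3 LECs. Summed over 5 valve markers other than Cldn11, valve LECs held 1417 to 5009 CPM per mouse, against 258 to 381 CPM in the remaining LECs. Summed over 5 collecting vessel markers other than Mmrn2, the collecting LECs held 2244 to 4392 CPM against 980 to 1920 CPM in the remaining LECs. Ptx3 LECs held 1285 to 2452 CPM of the same markers, which overlaps the range of the collecting LECs. BECs held 4627 to 6579 CPM, so these markers do not tell collecting LECs from BECs.

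Some traits of the cells moved with genotype. The summed level of 7 fibroblast markers was 782 and 1237 CPM in control LECs and 29.2 to 231 CPM in mutant LECs, and it was 964 and 754 CPM in control BECs against 17.6 to 86.4 CPM in mutant BECs. Cycling cells made up 1.01% and 3.05% of the control LECs and 14.7% to 31.6% of the mutant LECs. Ptx3 LECs made up 6.06% and 22.3% of the control LECs and 32.6% to 43.3% of the mutant LECs. Of the valve LECs, 2 of 23 in control 1 and 0 of 19 in control 2 also met the rule of another set. In mutants 1 to 5 these were 19 of 41, 8 of 27, 21 of 57, 11 of 24 and 10 of 40 valve LECs. The plates of mutants 1 to 4 are numbered 323 to 332, whereas those of mutant 5 and both controls are numbered 891 to 901, so genotype and plate series cannot be fully told apart. The part of these traits in each result was not tested, except where a value without such cells or within the series is given.

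Promoter sequence was read from RefSeq (GRCm38.p6) for the genes that were higher in valve LECs under all alternatives tried, of which Prox1 and Gata2 had an entry and Foxc2 had none. The window is the 250 bases before the transcript start, at chr1:190170828-190171077 (minus strand) for Prox1 and chr6:88193641-88193890 (plus strand) for Gata2, both free of annotated exons. Capitals mark a match, on either strand, to core letters of the factor families studied here. These were AGATAA for GATA factors, then TAAACA for forkhead factors, then AACAAT for SOX factors, then GGAAAA for NFAT, then AGGTCA for COUP-TF and GGTGTGA for T-box factors.
Prox1: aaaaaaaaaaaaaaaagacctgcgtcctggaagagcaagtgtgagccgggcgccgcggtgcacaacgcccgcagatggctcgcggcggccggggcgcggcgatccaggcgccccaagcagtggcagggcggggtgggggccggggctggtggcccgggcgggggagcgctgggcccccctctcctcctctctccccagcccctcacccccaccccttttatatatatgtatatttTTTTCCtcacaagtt
Gata2: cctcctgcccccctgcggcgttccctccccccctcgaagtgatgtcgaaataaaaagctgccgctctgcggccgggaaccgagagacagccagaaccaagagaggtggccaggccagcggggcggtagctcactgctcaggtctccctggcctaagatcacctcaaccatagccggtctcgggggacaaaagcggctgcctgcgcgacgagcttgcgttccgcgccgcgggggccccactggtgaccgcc

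The printed Prox1 window held a single NFAT match, on the opposite strand, 15 bases before the start, and the printed Gata2 window held none of the 6 motifs. RefSeq gives both genes a second window, which overlaps an annotated exon. That of Prox1 (chr1:190169516-190169765) held a single forkhead match, on the opposite strand, 166 bases before its start, and that of Gata2 held no match. Of all 32851 promoter windows of this length, 20.43% held the NFAT letters, 12.03% the forkhead letters, 14.02% the COUP-TF letters, 9.99% the GATA letters, 9.42% the SOX letters and 3.33% the T-box letters. A match describes the letters and is no evidence of binding.

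Per kilobase of transcript, Sox18 was the most abundant of the 9 genes in LECs, at 1262 ± 276 TPM (SD, n = 2 control mice) and 1171 ± 142 TPM (SD, n = 5 mutant mice). Tbx1 followed at 355 ± 167 TPM in controls and 248 ± 75.7 TPM in mutants. The means of Nfatc1, Nr2f2, Hhex, Prox1, Foxc2 and Gata2 lay between 89.6 TPM (Gata2) and 194 TPM (Nfatc1) in control LECs and between 94.8 TPM (Gata2) and 161 TPM (Foxc2) in mutant LECs. From Tbx1 down to Gata2 the ranges of neighbours in this order overlapped over the 7 mice, so their order is not settled. Foxp2 was the lowest, at 18.9 ± 0.70 TPM in controls and 9.06 ± 4.35 TPM in mutants. Its deposited length of 16346 bases covers the exons of 20 transcripts, which lowers its level per kilobase.

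A median of 6 of the 9 genes had a read in a LEC, in control and mutant mice alike, against 3 in control BECs and 4 in mutant BECs. A valve LEC held a median of 7. All the values that follow are CPM of the reads summed over the cells of a mouse, scaled by TMM (an edgeR normalisation). They compare the same gene between cells, not different genes. In such a sum, fewer cells with a transcript and fewer transcripts per cell cannot be told apart, so shares of cells with a read are given as well, after each cell was thinned to 50000 reads.

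**Figure D1:**
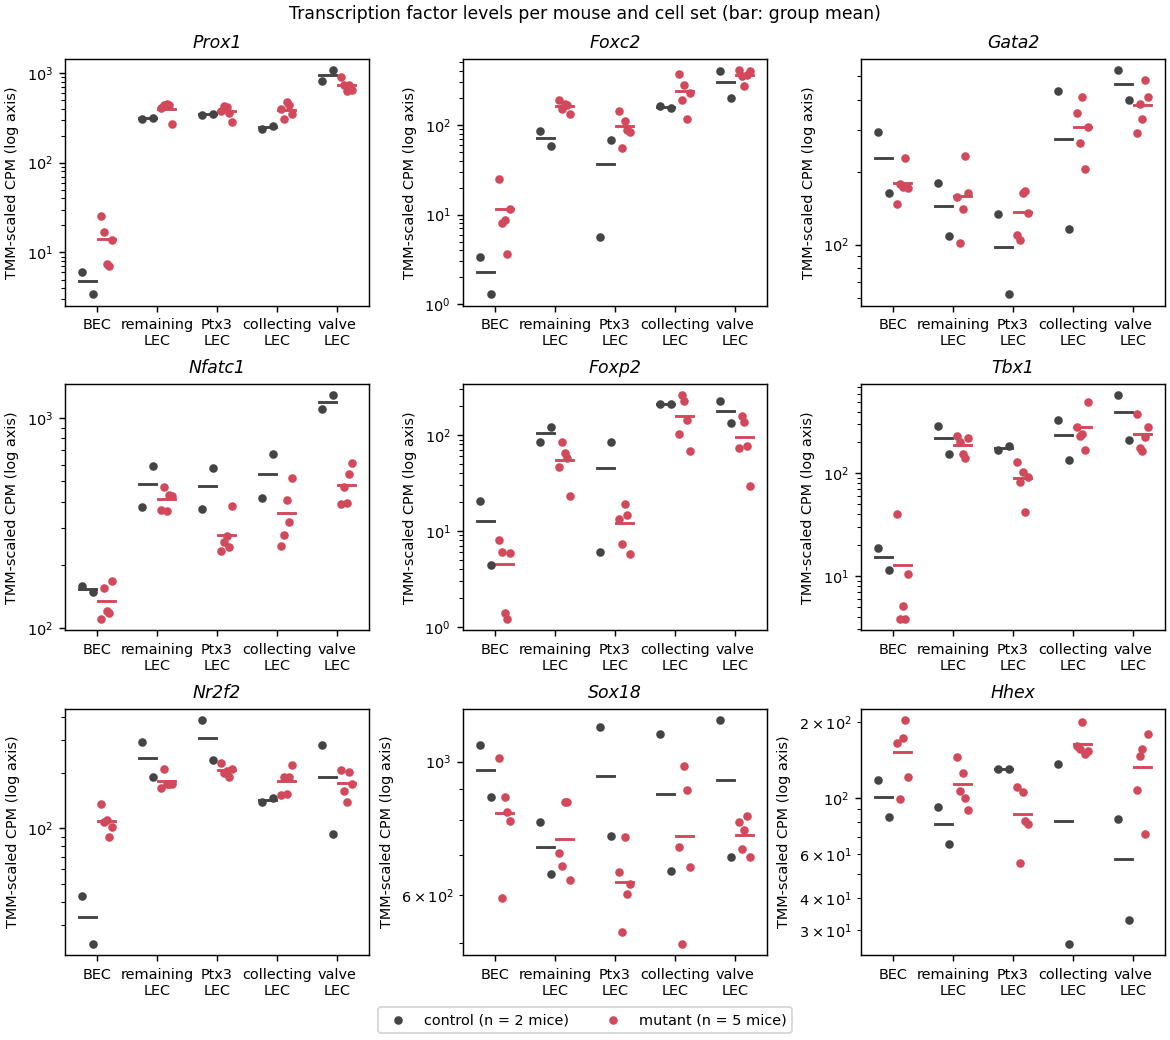
Level of each gene (TMM-scaled CPM, log axis) in BECs, remaining LECs, Ptx3 LECs, collecting LECs and valve LECs, with 1 point per mouse (grey, 2 controls; red, 5 mutants) and a bar at the group mean. Prox1 in valve LECs sits at 625 to 1069 CPM in all 7 mice, above every other LEC set, and mutant Nfatc1 in valve LECs sits below both controls.

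The first comparison asked which of the factors separate LECs from BECs of the same mouse. Foxc2, Tbx1 and Foxp2 were higher in LECs at a large ratio, Nfatc1 and Nr2f2 at a smaller one, and Sox18 was slightly lower. Gata2 and Hhex were read in both classes and did not pass the test. Of the 8 genes that did not enter the rule for LECs, 6 passed the test (edgeR quasi-likelihood test, Benjamini-Hochberg adjusted p under 0.05 over all genes, mouse as a block). The background is high here, since 20.3% of the 22358 genes tested were called.

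Foxc2 was at 118 and 82.4 CPM in control LECs and 3.33 and 1.29 CPM in control BECs, and at 132 to 211 CPM in mutant LECs and 3.59 to 25.2 CPM in mutant BECs. Every LEC sum lay above every BEC sum. The log2 fold change of Foxc2 between LECs and BECs was 4.49 ± 0.38 (SE, 7 mice, adjusted p = 5.47e-05). Tbx1 was at 302 and 162 CPM in control LECs against 18.8 and 11.5 CPM in control BECs, a log2 fold change of 4.21 ± 0.34 over the 7 mice (adjusted p = 4.27e-05). Tbx1, known from pharyngeal and heart development, was higher in LECs in 7 of 7 mice. For Foxp2 the log2 fold change was 3.75 ± 0.57 (adjusted p = 0.00168), with 108 and 122 CPM in control LECs, 16.5 to 85.6 CPM in mutant LECs, and 1.2 to 20.8 CPM in the BECs of all mice.

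Nfatc1 was at 317 to 642 CPM in LECs and 110 to 167 CPM in BECs, and the log2 fold change was 1.55 ± 0.11 (adjusted p = 2.10e-05). It was detected in 86.4% to 94.4% of LECs per mouse and in 55.6% to 69.3% of BECs. Nr2f2 was higher in LECs by 1.34 ± 0.34 on the log2 scale (adjusted p = 0.0238), but the ratio differed by genotype, as described further on. Sox18 was lower in LECs by a small step of 0.25 on the log2 scale (log2 fold change -0.25 ± 0.07, adjusted p = 0.0399), a call kept in 6 of 16 alternatives and lost when any mouse other than mutant 2 was left out (-0.28 to -0.20, adjusted p = 0.0509 to 0.0953). Sox18 had a read in 90.9% to 98.9% of LECs and in 94.5% to 100.0% of BECs.

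The log2 fold change of Gata2 between LECs and BECs was -0.05, with a 95% interval from -0.28 to 0.19 (adjusted p = 0.83). Hhex differed by -0.38, with an interval from -0.68 to -0.07 (adjusted p = 0.0845). Both genes were read in BECs, at 148 to 294 CPM for Gata2 and 83.8 to 203 CPM for Hhex in BECs. Prox1 entered the rule that made the classes, so its 305 to 469 CPM in LECs and 3.42 to 25.3 CPM in BECs are a description. With classes set by Flt4 and Mmrn1 alone, Prox1 was higher in LECs by 4.11 ± 0.51 on the log2 scale (adjusted p = 0.000517).

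**Figure D2:**
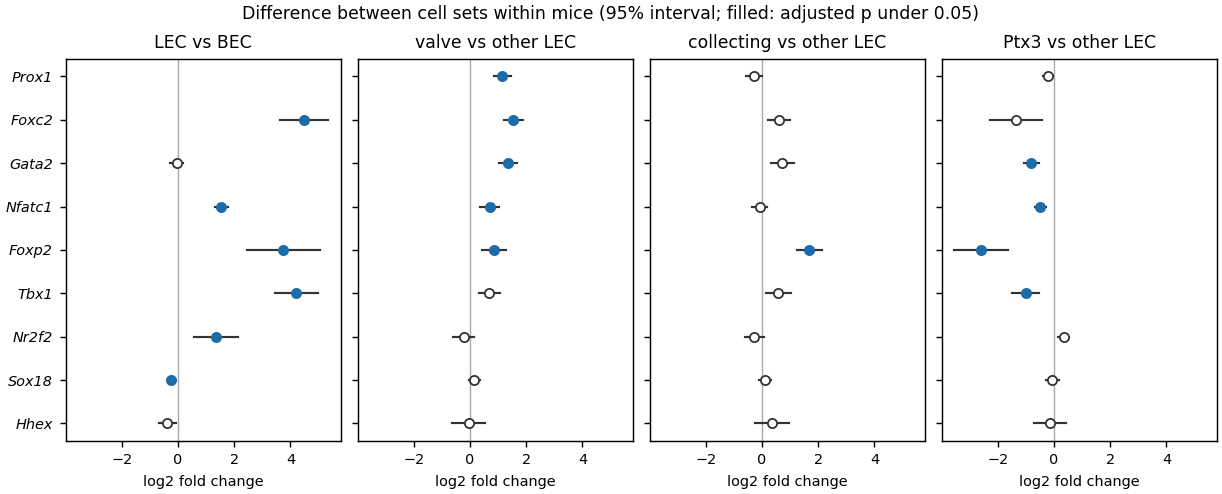
Log2 fold change of each gene between cell sets of the same mouse (LEC against BEC, and valve, collecting and Ptx3 LECs each against the other LECs), with bars for the 95% interval and filled points where the adjusted p was under 0.05. Prox1 has no point for LEC against BEC since it set the classes. Valve LECs show 5 genes higher and Ptx3 LECs show 4 genes lower.

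Other endothelial transcription factors were read against the same table. Of 45 such genes tested, 7 were higher and 15 lower in LECs. Meis2 (log2 fold change 4.15), Maf (4.06) and Lmo2 (2.04) led the first group, with Tcf15 (-5.97), Sox17 (-5.33) and Irf1 (-2.43) at the other end. SOX17 is known as an arterial factor and TCF15 partners MEOX2 in capillary endothelium. Of 30 genes for valve and collecting vessel effectors, 9 were higher and 10 lower in LECs. The median log2 fold change was -0.11 for the other factors and 0.32 for the effectors, against 0.02 over all genes tested.

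Valve LECs carried more Foxc2, Gata2 and Prox1 than the other LECs of the same mouse, and this call was kept in all 19 alternatives for each gene. With Foxp2 and Nfatc1, 5 of the 9 genes were higher in valve LECs, where 2.97% of the 19845 genes tested were called. The median over the 9 genes was 0.70 on the log2 scale, and the median over all genes tested was -0.37. The valve rule used Cldn11 only, which encodes a tight junction protein.

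Foxc2 was at 404 and 199 CPM in the valve LECs of controls 1 and 2, and at 270.5 to 407 CPM in those of the mutants. In the remaining LECs it was at 85.8 and 58.6 CPM in controls and 131 to 190 CPM in mutants. Within every mouse the valve LECs were higher, and the log2 fold change of Foxc2 was 1.55 ± 0.15 (adjusted p = 0.00151). Gata2 was at 289 to 529 CPM in valve LECs and at 101 to 234 CPM in the remaining LECs, with a log2 fold change of 1.35 ± 0.15 (adjusted p = 0.00287). Prox1 was at 810 and 1069 CPM in control valve LECs and at 625 to 906 CPM in mutant valve LECs, against 273 to 448 CPM in the remaining LECs. Its log2 fold change was 1.15 ± 0.14 (adjusted p = 0.00547), with 7 of 7 mice higher.

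The shares of cells with a read were compared as well. Foxc2 had a read in 43.5% to 73.7% of valve LECs per mouse and in 25.7% to 53.1% of the remaining LECs. Gata2 had a read in 62.5% to 87.0% of valve LECs and in 34.6% to 60.9% of the remaining LECs. Prox1, Foxc2 and Gata2 were read together in 29.2% to 53.7% of valve LECs per mouse and in 13.3% to 28.8% of the remaining LECs. The BECs of the same mice had all the 3 genes together in 0% to 8.02% of cells.

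Nfatc1 was higher in valve LECs by 0.70 ± 0.16 on the log2 scale (adjusted p = 0.0443, 7 of 7 mice), a call kept in 9 of 19 alternatives and lost when any 1 mouse was left out (0.57 to 0.79, adjusted p = 0.0503 to 0.101). The ratio of valve to remaining LECs lay higher in controls than in mutants. In control 1 it was at 1102 CPM in valve LECs and 378 CPM in the remaining LECs, and in control 2 at 1282 and 588 CPM. In the mutants it was at 388 to 609 CPM in valve LECs and 359 to 467 CPM in the remaining LECs. The valve to remaining ratio was 2.92 and 2.18 in the controls and 1.00 to 1.43 in the mutants. Foxp2 was higher by 0.85 ± 0.19 (adjusted p = 0.0395), kept in 5 of 19 alternatives and lost when any mouse other than control 2 was left out (0.77 to 0.92, adjusted p = 0.0727 to 0.0969). Tbx1, at 0.69 ± 0.16, missed the threshold (adjusted p = 0.0505) and passed it in 9 alternatives, among them the fit without mutant 2 (0.79, adjusted p = 0.0354).

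Nr2f2, Sox18 and Hhex did not pass in valve LECs. Their log2 fold changes were -0.23 (95% interval -0.59 to 0.13), 0.16 (-0.03 to 0.34) and -0.04 (-0.63 to 0.54). The interval of Hhex was the widest of the 9 genes in this comparison.

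Among the 29 valve and collecting vessel effectors tested, 7 were higher in valve LECs and none was lower. The largest were Angpt2 (1.57), which encodes a TIE2 ligand, Fn1 (1.47), which encodes the fibronectin of the valve leaflet matrix, and Lama5 (1.17), which encodes a laminin chain. Of the 45 other endothelial factors 3 were higher, Klf2 (0.76), Foxp1 (0.57) and Tcf4 (0.42), and none was lower. KLF2 is known to respond to flow. Of 20 LEC identity genes, 2 were higher and 3 lower in valve LECs.

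Foxp2 was the sole member called in collecting LECs, against 2.26% of 19427 genes tested. It was at 213 and 210 CPM in the collecting LECs of the controls and at 68.1 to 261 CPM in those of the mutants, and at 85.3, 123 and 23.2 to 84.1 CPM in the remaining LECs of the same groups. It was higher in 7 of 7 mice, with a log2 fold change of 1.69 ± 0.20 (adjusted p = 0.00428). Foxp2 had a read in 30.8% to 66.7% of collecting LECs per mouse and in 19.5% to 37.0% of the remaining LECs.

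The collecting LECs hold many cells of mixed character, which touches all their values. In 96 of the 204 cells the LEC and BEC scores lay within 4 times of each other (22 of 32 cells in control 1 and 14 of 24 in control 2). Mmrn2, which made the set, is itself higher in BECs, at 790 to 1226 CPM against 137 to 315 CPM in LECs. Without the mixed cells the log2 fold change of Foxp2 was 1.64 with an adjusted p of 0.134, so the size stayed and the call was lost. Gata2 (0.71, adjusted p = 0.0813), Foxc2 (0.61, adjusted p = 0.106) and Tbx1 (0.58, adjusted p = 0.172) did not pass. Prox1 was at -0.29 (adjusted p = 0.247) and turned to 0.10 without the mixed cells. Prox1 is a term of the LEC score that defines the mixed cells, so this turn is a description. Nfatc1, Nr2f2, Sox18 and Hhex lay between -0.27 and 0.36 and did not pass.

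Other genes called higher in the collecting LECs than in the other LECs were Bmp4 (log2 fold change 3.16), a ligand, Efnb2 (0.88), the ephrin of valve and arterial endothelium, and Gja4 (0.73), a connexin. All 3 are of the effector list, in which Sema3a (-1.09) and Pkd1 (-0.98) were lower. Epas1 (1.18), Sox7 (0.88) and Foxo1 (0.88) led the 4 factors that were higher there. Between LECs and BECs, Bmp4 (-1.94), Epas1 (-2.10) and Sox7 (-1.14) were called lower in LECs, so they do not tell collecting LECs from BECs. Efnb2 (0.83) and Gja4 (1.70) were called higher in LECs than in BECs.

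Ptx3 encodes pentraxin 3, a secreted pattern recognition protein. Ptx3 LECs had less of 4 of the 9 factors than the other LECs of the same mouse, and none of the 9 passed as higher. The 4 were Foxp2, Tbx1, Gata2 and Nfatc1, where 2.49% of 20227 genes were called. The other LECs include the valve and collecting LECs. The median over the 9 genes was -0.49, against -0.13 over all genes tested.

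Foxp2 showed the largest difference. It was at 5.75 to 19.3 CPM in the Ptx3 LECs of the mutants, against 23.2 to 84.1 CPM in their remaining LECs. In control 1 it was at 6.09 CPM and in control 2 at 85.7 CPM, so the 2 controls spanned a wider range than the 5 mutants. The log2 fold change of Foxp2 was -2.60 ± 0.42 (adjusted p = 0.0178, lower in 7 of 7 mice). The call was lost without mutant 1 (-2.63, adjusted p = 0.0605), mutant 3 (-2.68, adjusted p = 0.0580) or mutant 4 (-2.64, adjusted p = 0.0598). Gata2 was at 62.2 to 168 CPM in Ptx3 LECs, and its log2 fold change of -0.81 ± 0.11 (adjusted p = 0.0107) was kept in 19 of 19 alternatives. Tbx1 was lower by 1.02 on the log2 scale (-1.02 ± 0.22, adjusted p = 0.0479) in 6 of 7 mice, a call kept in 9 of 19 alternatives and lost when any mouse other than control 2 was left out (-1.09 to -0.87, adjusted p = 0.0612 to 0.129). Nfatc1 was at -0.49 ± 0.09 (adjusted p = 0.0302), kept in 12 of 19 and lost without any 1 of the mutants (-0.55 to -0.44, adjusted p = 0.0569 to 0.0912).

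Foxc2 was lower in 7 of 7 mice, at a log2 fold change of -1.36 ± 0.41 (adjusted p = 0.126). Prox1 was lower in 7 of 7 mice as well, by a small step, at -0.23 ± 0.08 (adjusted p = 0.168). Against the remaining LECs alone, the Ptx3 LECs held 0.813 to 1.10 times the Prox1 level per mouse, 0.547 to 0.979 times the Nfatc1 level and 0.071 to 0.697 times the Foxp2 level. By the same ratio Gata2 stood at 0.575 to 1.16, above 1 in mutants 2 and 3, and Tbx1 at 0.296 to 1.195, above 1 in control 2. Nr2f2 was the member with the opposite sign, higher than in the other LECs in 7 of 7 mice at 0.34 ± 0.08 (adjusted p = 0.0731). By the ratio to the remaining LECs, Nr2f2 stood at 0.951 to 1.352, below 1 in mutant 2. Foxc2 stood at 0.065 to 1.163 by that ratio, above 1 in control 2. Neither Sox18 (-0.07, interval -0.30 to 0.16) nor Hhex (-0.15, interval -0.72 to 0.41) passed. Ptx3 LECs of control 1 numbered 12 cells and held 21 reads of Foxc2, so that value is the least certain. Among the effectors, 6 were lower in Ptx3 LECs, led by Bmp4 (-3.15), Cldn11 (-1.76) and Mmrn2 (-1.65), and 1 was higher, Itga9 (0.90), the integrin chain of valve leaflets.

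The next comparisons asked how the factors differ between mutant and control mice. All of these share the same 2 controls. In LECs as a whole, 0 of the 9 genes passed the edgeR test, where 3.75% of 20290 genes were called. At an unadjusted p under 0.05, 3 of the 9 passed (Nfatc1, Foxc2 and Foxp2), and DESeq2 called 1 (Nfatc1). Over all genes these shares were 21.2% at that unadjusted p and 16.6% by DESeq2, so neither count stands apart from the background.

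Nfatc1 was at 433 and 642 CPM in control LECs and at 317, 361, 335, 325 and 410 CPM in mutants 1 to 5. All mutants lay below both controls, and the log2 fold change was -0.58 ± 0.17 (adjusted p = 0.0914). Foxc2 was at 118 and 82.4 CPM in control LECs and at 211, 145, 162, 136 and 132 CPM in the mutants, all above the controls, with a log2 fold change of 0.68 ± 0.24 (adjusted p = 0.153). Groups that do not overlap were common, at 27.1% of the genes tested in LECs. Foxc2 had a read in 31.8% and 31.5% of control LECs and in 45.7% to 58.3% of mutant LECs. How often genes split by such shares in LECs was not counted. Foxp2 lay the other way, from 108 and 122 CPM in controls to 50.5, 85.6, 65.6, 47.0 and 16.5 CPM in mutants (log2 fold change -1.09 ± 0.47, adjusted p = 0.232).

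Prox1 itself was at 331 and 369 CPM in control LECs and at 305 to 469 CPM in mutant LECs. Its log2 fold change was 0.27, with an interval from -0.12 to 0.67 (adjusted p = 0.399), that is from 0.919 to 1.59 times the control level. Prox1 is a term of the rule that made the LECs, and with LECs set without it the value was 0.25 (adjusted p = 0.428). With the plate series as a block it was -0.17 (adjusted p = 0.755), and mutant 5, from the series of the controls, had the lowest Prox1 of all mice. Gata2 (0.08), Hhex (0.37), Nr2f2 (-0.28), Sox18 (-0.12) and Tbx1 (-0.53) did not pass, with adjusted p from 0.330 to 0.895. For Gata2, Nr2f2, Sox18 and Tbx1 the sign depended on which of the controls was kept.

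Among the other endothelial factors, 4 were higher in mutant LECs and 1 lower. Sox13 (1.76) and Bcl6b (1.74) rose most and Elk3 (0.78) followed, while Hes1, a Notch target, fell (-1.11). BCL6B is an endothelial zinc finger factor and ELK3 a factor of the ETS family. Of the 30 effectors 3 were higher, Sema3a (1.79), Itga5 (1.10) and Itga9 (1.04), and none was lower.

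**Figure D3:**
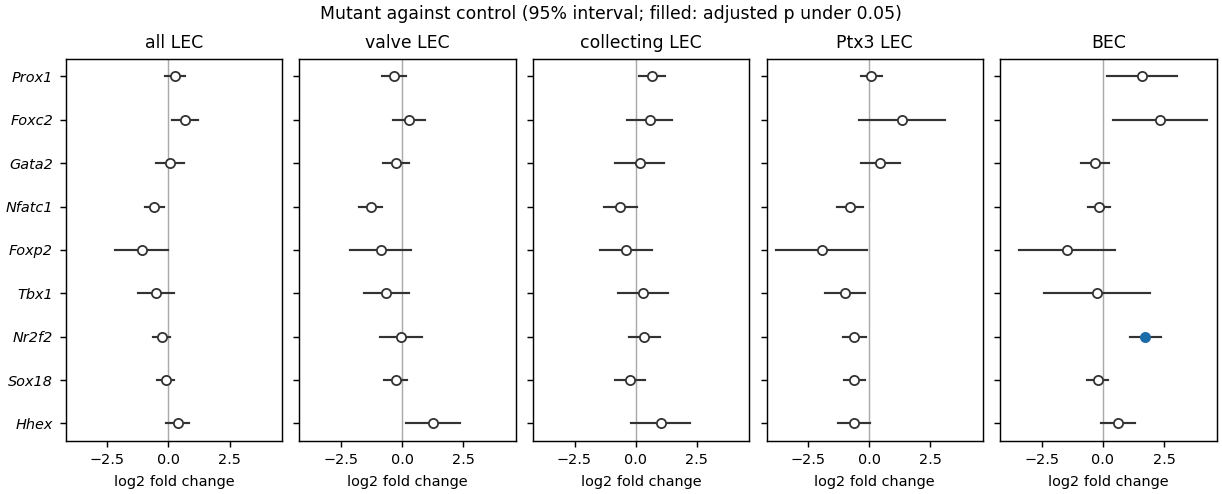
Log2 fold change of each gene between 5 mutant and 2 control mice in all LECs, valve, collecting and Ptx3 LECs and BECs, with bars for the 95% interval and a filled point where the adjusted p was under 0.05. Nr2f2 in BECs is the sole filled point, at 1.74, and Nfatc1 lies below 0 in all 5 panels.

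In valve LECs, Nfatc1 had the lowest p of the 9 genes. It was at 1102 and 1282 CPM in the controls and at 388, 469, 395, 539 and 609 CPM in the mutants. All mutants lay below both controls. The log2 fold change was -1.29 ± 0.22 (95% interval -1.77 to -0.81), with an adjusted p of 0.117 by edgeR and 0.000241 by DESeq2. On simulated counts of this comparison edgeR recovered few of the changed genes, and DESeq2 recovered more but made many more false calls. With the plate series as a block it was -0.98 (adjusted p = 0.860), and mutant 5, from the series of the controls, stood at 609 CPM. None of the 13948 genes tested in this small set was called by edgeR (0%), although 1760 (12.6%) had an unadjusted p under 0.05 and DESeq2 called 1257 (8.92%). The groups did not overlap in 18% of the genes. Of the 9 genes, 0 were called by edgeR, 2 had an unadjusted p under 0.05 (Nfatc1 and Hhex) and 1 was called by DESeq2. The valve LECs of the genotypes were not alike in make-up, since more mutant valve LECs also met another set's rule. Their Mmrn2 was at 5.38 and 41.5 CPM in controls and 167 to 392 CPM in mutants. Their Ptx3 was at 3.19 and 25.2 CPM in controls and 82.6 to 239 CPM in mutants.

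Hhex was at 82.2 and 32.8 CPM in control valve LECs and at 71.9 to 178 CPM in mutant valve LECs, a log2 fold change of 1.25 ± 0.49 (adjusted p = 0.362), and the groups overlapped. Prox1 (-0.33), Foxc2 (0.29), Gata2 (-0.25) and Foxp2 (-0.87) did not pass, and the levels of the 2 groups of mice overlapped for each. Among Prox1, Foxc2, Gata2 and Foxp2, the shares of valve LECs with a read overlapped for Prox1 and Foxp2 and did not for Foxc2 and Gata2. They overlapped for Hhex, Nr2f2 and Tbx1 as well. For Foxc2 they were 43.5% and 47.4% in controls and 62.5% to 73.7% in mutants. For Gata2 they were 87.0% and 78.9% in controls and 62.5% to 68.4% in mutants. The control shares rest on 23 and 19 cells, and how often genes split by such shares was not counted. The valve levels of Foxc2, Gata2 and Prox1 in mutants stood at 0.79 to 1.22 times those of controls, with intervals that reach from 0.57 to 1.93 times.

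Whether the genotype effect differs between valve and other LECs was tested as a term of its own, chosen after the data were seen. For Nfatc1 the term was -0.88 ± 0.20 (unadjusted p = 0.0018, adjusted p = 0.271), with a 95% interval from -1.33 to -0.42, so it did not pass the threshold over all genes. Under an endothelial gate, which keeps cells with at least 50 CPM of Pecam1 and Cdh5 together and fewer reads of other cell types' markers than of endothelial ones, it was -0.62 (adjusted p = 0.421). Of the 19845 genes, 0.0151% were called for this term and none of the 9 genes was among them. At an unadjusted p under 0.05, where 8.35% of all genes lay, the term also gave Prox1, at -0.66 (adjusted p = 0.472).

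**Figure D4:**
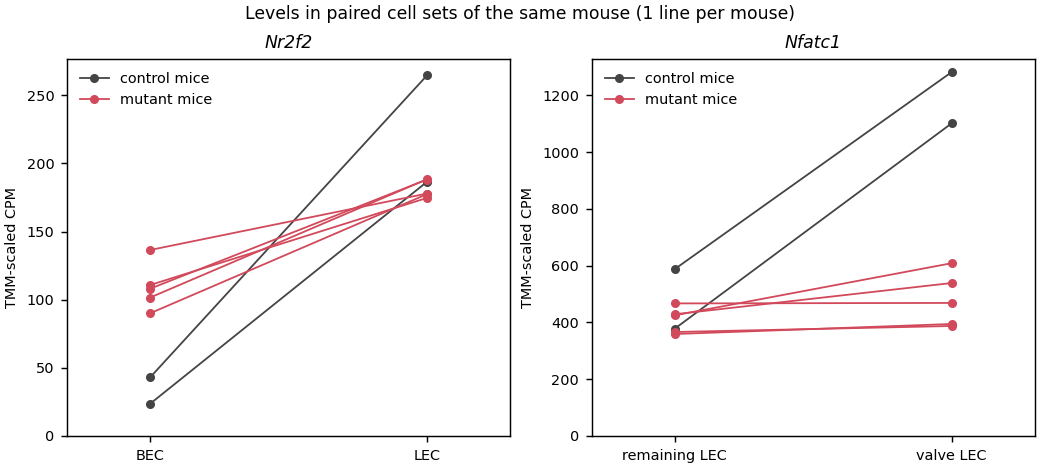
Level (TMM-scaled CPM, linear axis) of Nr2f2 in BECs and LECs and of Nfatc1 in remaining and valve LECs, with 1 line per mouse (grey, 2 controls; red, 5 mutants). The control lines are steeper in both panels: Nr2f2 in BECs starts at 42.9 and 23.6 CPM in controls and 90.0 to 136 CPM in mutants, and Nfatc1 in valve LECs ends at 1102 and 1282 CPM in controls and 388 to 609 CPM in mutants.

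In collecting LECs 0 of the 9 genes passed, as did 0 of 14199 genes (0%) by edgeR, with 1087 (7.66%) at an unadjusted p under 0.05 and 538 (3.94%) called by DESeq2, none of the latter a member. Prox1 was at 235 and 258 CPM in control collecting LECs and at 394, 304, 475, 434 and 346 CPM in the mutants, above both controls in 5 of 5, and 13.2% of all genes had groups that did not overlap. Its log2 fold change was 0.66 ± 0.24 (unadjusted p = 0.0199, adjusted p = 0.579). Prox1 is a term of the LEC rule and of the score that defines mixed cells, so this difference is a description. Hhex was at 136 and 26.3 CPM in controls and 148 to 199 CPM in mutants (1.02 ± 0.54, adjusted p = 0.689). Nr2f2 was at 139 and 146 CPM in controls and at 152 to 222 CPM in mutants (0.35 ± 0.29, adjusted p = 0.825). The share of mixed cells was higher in these control cells than in the mutants. A fit without the mixed cells reversed the direction of none of Prox1, Hhex and Nr2f2, and the sizes without them are not given here. For the term of set by genotype, 0% of 19427 genes were called by edgeR and 996 (5.13%) had an unadjusted p under 0.05, among them Tbx1 (0.95), Foxp2 (0.91) and Nr2f2 (0.67), each with an adjusted p of 0.960.

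In Ptx3 LECs 0 of the 9 genes passed the edgeR test, where 5.03% of 16756 genes were called, and 5 had an unadjusted p under 0.05 (Nfatc1, Sox18, Nr2f2, Tbx1 and Foxp2, all with a negative estimate). DESeq2 called 1, Nfatc1. Over all genes 23.9% had an unadjusted p under 0.05 and DESeq2 called 20.5%. Tbx1 was at 170 and 184 CPM in the controls and at 128, 82.9, 104, 41.8 and 91.7 CPM in the mutants (log2 fold change -1.0 ± 0.36, adjusted p = 0.137). Sox18 was at 1143 and 752 CPM in controls and at 521 to 750 CPM in mutants (-0.61 ± 0.19, adjusted p = 0.102). Nr2f2 was at 387 and 235 CPM in controls and at 190 to 225 CPM in mutants (-0.61 ± 0.21, adjusted p = 0.121). For Tbx1, Sox18 and Nr2f2, and for Hhex (-0.61, adjusted p = 0.236), all mutants lay below both controls, as they did for 11.7% of all genes tested, and 29.1% of the genes had groups that did not overlap in either direction.

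Nfatc1 in Ptx3 LECs was at 368 and 576 CPM in controls and 233 to 381 CPM in mutants (-0.79 ± 0.24, adjusted p = 0.0924). Foxp2 was at -1.95 ± 0.81 (adjusted p = 0.189) and turned to 1.02 without control 2, where control 1 stood at 6.09 CPM. Foxc2 (1.34), Gata2 (0.45) and Prox1 (0.09) were not called. Without control 2 the count of members called was 3 (Foxc2, Nr2f2 and Sox18), but this leaves the 12 cells of control 1 as the sole control. For the term of set by genotype 0.0742% of 20227 genes were called and no member. Hhex (-1.37 ± 0.33, adjusted p = 0.171), Sox18 (-0.55 ± 0.13, adjusted p = 0.174) and Tbx1 (-0.94 ± 0.38, adjusted p = 0.370) had an unadjusted p under 0.05, as did 12.8% of all genes.

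In BECs, Nr2f2 was higher in mutants, and it was the sole member called, where 1.87% of 19478 genes were called. It was at 42.9 and 23.6 CPM in the controls and at 136, 108, 111, 90.0 and 102 CPM in mutants 1 to 5. All mutants lay above both controls, and 24.8% of the genes tested in BECs had groups that did not overlap. The log2 fold change was 1.74 ± 0.28 (95% interval 1.09 to 2.38, adjusted p = 0.0259), a fold of 3.34. Nr2f2 had a read in 39.9% and 18.9% of control BECs and in 36.4% to 64.7% of mutant BECs, so the shares overlapped where the levels did not.

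The call for Nr2f2 in BECs held in 13 of 19 alternatives. It was kept under the endothelial gate (1.69, adjusted p = 0.0193) and without cells of mixed LEC and BEC character (1.90, adjusted p = 0.0160). It was not past the threshold with the plate series as a block (1.63, adjusted p = 0.206), nor with the replicate block (1.96, adjusted p = 0.0988), nor without control 2 (1.39, adjusted p = 0.0742), mutant 1 (1.65, adjusted p = 0.0542), mutant 2 (1.74, adjusted p = 0.0620) or mutant 3 (1.73, adjusted p = 0.0618). Mutant 5, from the plate series of the controls, stood at 102 CPM in BECs.

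In LECs the genotypes differed less. Nr2f2 was at 265 and 186 CPM in control LECs and at 178, 188, 175, 177 and 188 CPM in mutant LECs. The LEC to BEC ratio of Nr2f2 was 6.16 and 7.90 in the controls and 1.3 to 1.97 in the mutants. The test of the difference between the 2 genotype effects gave -2.08 ± 0.20 for Nr2f2 (95% interval -2.55 to -1.62, adjusted p = 0.0158), where 0.197% of 22364 genes were called, so Nr2f2 is 1 of 44 genes. It lost the threshold without control 1 (-2.26, adjusted p = 0.0818), control 2 (-1.90, adjusted p = 0.105), mutant 1 (-1.99, adjusted p = 0.0516) or mutant 3 (-2.01, adjusted p = 0.0550). Of the other endothelial factors, Sox13 was called for this term as well, at 2.65.

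Foxc2 and Prox1 lay higher in the BECs of all mutants than of both controls, at low levels and without passing the edgeR test. Over all genes tested in BECs, 24.8% had groups that did not overlap, so this pattern was common. Prox1 was at 6.12 and 3.42 CPM in control BECs and at 25.3, 17.1, 7.51, 7.09 and 13.7 CPM in mutant BECs, a log2 fold change of 1.59 ± 0.63. Prox1 is a term of the rule that made the BECs, so this is a description, and with the classes set without Prox1 the value was 1.33 (adjusted p = 0.496). Foxc2 was at 3.33 and 1.29 CPM in controls and at 25.2, 8.0, 8.78, 3.59 and 11.6 CPM in mutants (2.32 ± 0.84, adjusted p = 0.191 by edgeR and 0.0164 by DESeq2, which called 14.1% of all genes). Mutant 1 held the highest value of both genes and of Tbx1 (40.1 CPM), and its BECs also had the highest sum of 8 LEC markers, 957 CPM against 381 to 689 CPM in the other mice. Without the mixed cells the log2 fold change of Prox1 was 0.24 and that of Foxc2 1.90. Prox1 is also a term of the score that defines the mixed cells, so its value without them is a description. The share of BECs with a Prox1 read was 25.2% and 20.1% in controls and 5.98% to 39.0% in mutants, so no order is read from it.

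The remaining members did not pass in BECs. Hhex was at 0.62 (interval -0.06 to 1.3), Gata2 at -0.33 (-0.89 to 0.23), Sox18 at -0.22 (-0.66 to 0.22), Nfatc1 at -0.17 (-0.62 to 0.28), Tbx1 at -0.24 (-2.41 to 1.93) and Foxp2 at -1.46 (-3.42 to 0.49). Foxp2 had a read in 23.3% and 20.7% of control BECs and in 6.31% to 9.09% of mutant BECs. Its levels were low and overlapped, at 20.8 and 4.37 CPM in controls and 1.2 to 7.98 CPM in mutants. How often genes split by such shares was not counted. Of the other endothelial factors, 0 were higher and 2 lower in mutant BECs, Sox7 (-0.99) and Tcf15 (-1.74). Of the effectors, Rcan1 (2.07) and Itga5 (0.96) were among those higher in mutant BECs, with Gja1 (-1.23) and Efnb2 (-0.92) lower. RCAN1 is a feedback inhibitor of calcineurin, and EFNB2 an arterial ephrin.

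**Figure D5:**
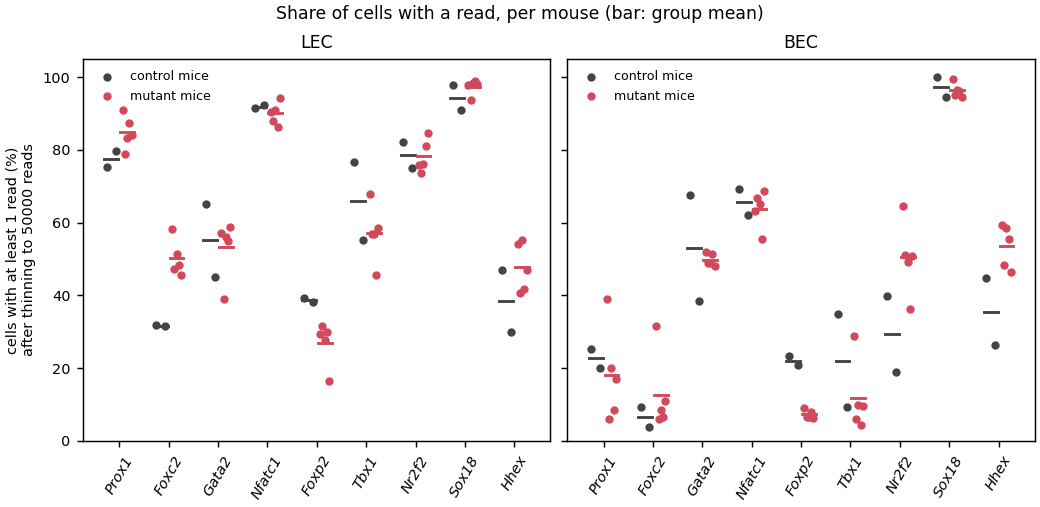
Percent of LECs and of BECs with at least 1 read of each gene after every cell was thinned to 50000 reads, with 1 point per mouse (grey, 2 controls; red, 5 mutants) and a bar at the group mean. Foxc2 was read in 31.8% and 31.5% of control LECs and in 45.7% to 58.3% of mutant LECs, and Sox18 in over 90% of cells of both classes in every mouse. How often genes split between genotypes by such shares was not counted.

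Across 35 sums (7 mice in valve, collecting, Ptx3 and remaining LECs and BECs), the genes most like each factor were found among 10360 genes by Pearson's r of log2(CPM + 1). These correlations describe shared patterns over sums that share mice and the contrast between LECs and BECs, and carry no test. Prox1 was closest to Add3 (r = 0.97), Slc45a3 (0.97) and Pkhd1l1 (0.96), and Tbx1 to Fxyd6 (0.96), Palm (0.95) and Dtx1 (0.95). Foxc2 was closest to Gm9888 (0.91), Cmtm7 (0.91) and Pkhd1l1 (0.91). Foxp2 was closest to Serpine2 (0.91), Pdlim3 (0.90) and Ccdc3 (0.89), and Nfatc1 to Cdc42ep5 (0.91), Zmynd8 (0.89) and Cd63 (0.89).

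The highest r was lower for the other 4 factors. Nr2f2 was closest to Cyb5r3 (0.87), Prss23os (0.85) and Prss23 (0.85), Gata2 to Pnpla2 (0.76), Ahsg (0.75) and Slc44a2 (0.74), Sox18 to Mir3064 (0.75), Ddx5 (0.71) and Nck1 (0.71), and Hhex to Fbxo32 (0.72), Cyp4v3 (0.72) and Ccdc102a (0.70). Among the 9 genes, Prox1 went with Tbx1 (0.89), Foxc2 (0.89) and Nfatc1 (0.80), whereas its r was 0.19 with Gata2, -0.21 with Sox18 and -0.20 with Hhex.

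All 9 genes are protein coding. In GRCm38 (GENCODE vM21) Prox1 lies at chr1:190118035-190170714 on the minus strand, Foxc2 at chr8:121116171-121118895 (plus, a single exon), Foxp2 at chr6:14901349-15441977 (plus), Gata2 at chr6:88193891-88207032 (plus) and Sox18 at chr2:181669836-181671640 (minus). Nr2f2 lies at chr7:70351944-70366735 (minus), Nfatc1 at chr18:80606205-80713071 (minus), Hhex at chr19:37434810-37440731 (plus) and Tbx1 at chr16:18580979-18590671 (minus). Exons of Prox1 share 133 bases with Prox1os and exons of Nr2f2 share 643 bases with B130024G19Rik, both on the opposite strand. Smart-Seq2 does not keep strand, so reads from these stretches cannot be assigned to either gene.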

How the data were processed

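The deposited tables hold raw read counts per gene and well, which the authors made with TopHat2 2.1.1, SAMtools 0.1.18 and featureCounts (Subread) on GRCm38 with the transgene added. The annotation version is not given in the sources used here. The deposited gene lengths, in bases, were used for TPM. Of 3456 wells, cells with at least 50000 reads, 200 genes and at most 10% mitochondrial reads were kept (plates of 99738886 to 151102969 reads, medians of 219487 to 424655 per cell). The 92 spike-ins were left out. Symbols came from GENCODE vM21 (46005 of 46517 genes). Doublets were not called. Reads were summed per mouse and set, both plates of mutants 3 and 5 together, with at least 5 cells, and tested with edgeR 4.0.16 (filterByExpr, TMM, glmQLFTest, Benjamini-Hochberg, call at 0.05), DESeq2 1.42.0 as an alternative, in R 4.3.3. The gene of a set's own rule was left out of that test. With 5 mutant and 2 control mice as replicates, p-values rest on the spread between mice. Tests were tried on simulated counts, where edgeR made few false calls and missed most changed genes, and DESeq2 recovered more of them with many more false calls. Smart-Seq2 has no molecular identifiers. Replicate numbers are names and did not pair mice. Named genes were the 9 factors, the 3 largest calls per list and direction, the 3 most alike genes, and genes that set a class. A gene that this rule named is not reported here. Members and lists were chosen with earlier results of these data known.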

Additional observations from a re-analysis of the deposited data

Results flagged for a closer look

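The genotype effect on Nr2f2 differed between LECs and BECs by the test of the difference itself, -2.08 on the log2 scale. The level was 42.9 and 23.6 CPM in control BECs and 90.0 to 136 CPM in mutant BECs, whereas LECs held 186 to 265 CPM in controls and 175 to 188 CPM in mutants. Mutant 5, whose plates share the number series of the controls, stood at 102 CPM in BECs.

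Of 54 groups of 5 mutant mice (9 genes in 6 cell sets), 5 held a mouse whose gap to the nearest other mouse, as a share of the whole range, was above Dixon's 95% critical value. By that limit chance gives such a mouse in about 1 in 20 groups, and the 54 groups share the same 5 mice and many of the same cells. Mutant 3 stood at 199 CPM for Hhex in collecting LECs, where the others held 148 to 161 CPM. Mutant 5 stood at 381 CPM for Nfatc1 in Ptx3 LECs against 233 to 275 CPM, and at 273 CPM for Prox1 in the remaining LECs against 406 to 448 CPM. Mutant 2 stood at 211 CPM for Nr2f2 in the remaining LECs against 167 to 175 CPM. Mutant 1 stood at 40.1 CPM for Tbx1 in BECs against 3.77 to 10.5 CPM.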

How the results depend on the processing

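Of 1748 values recomputed under an alternative, 1594 kept direction and side of the threshold, and none of the 19 called member differences reversed. Of the 90 member comparisons tested, 19 were called, so most of these values had not passed and stayed so. Prox1 between LECs and BECs, 1 of the 19, had no alternative. Several called differences often lost the call, such as Foxp2 in valve LECs, kept in 5 of 19 alternatives. The cause of each change below was not tested. Leaving out a control leaves 1 control mouse, which is then assumed to vary like the mutants, and such fits, the plate series and the unlike control mice limit every genotype comparison. The control sums of valve, collecting and Ptx3 LECs rest on 12 to 44 cells each, which limits their depth.

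DESeq2 called more genes than edgeR throughout (LEC mutant against control 3307 against 761, BEC 2707 against 364, their difference 1302 against 44, valve 2648 against 589, collecting 2445 against 439, Ptx3 2495 against 503, and mutant against control 1257 against 0 in valve, 538 against 0 in collecting and 3329 against 843 in Ptx3 LECs). The plate series block left 99 genes in LECs, 37 in BECs, 0 in valve, 0 in collecting and 23 in Ptx3 LECs, and without cycling cells 295 genes were called in LECs. DESeq2 size factors moved the median of all genes from -0.37 to -0.31 in valve and from -0.40 to -0.30 in collecting against other LECs. The replicate numbers do not pair mice (correlations of same-numbered mice -0.0107 and 0.021 in LECs, -0.00206 and 0.0611 in BECs). With the replicate block 17 genes were called in LECs, 32 in BECs, 3 in valve, 10 in collecting and 117 in Ptx3 LECs, 0 of the 9 factors in BECs, where Nr2f2 was at 1.96 (adjusted p = 0.0988), and Nr2f2 in valve LECs turned to 0.18.

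The number of the 9 factors called under DESeq2 was 3 in BEC mutant against control, 1 in LEC, 1 in valve and 1 in Ptx3 mutant against control, and 3 in collecting against other LECs. It was 0 in BECs with the plate series block. In Ptx3 mutant against control it was 1 with thinned cells. In Ptx3 against other LECs it was 2 with doubled limits and 2 without cycling cells. In collecting against other LECs it was 2 with DESeq2 size factors, 2 with thinned cells, 0 without mixed cells, 3 with doubled and 2 with halved limits. In valve against other LECs it was 3 without cycling cells. With 1 mouse left out it ranged from 0 to 1 in BEC mutant against control, 0 to 3 in Ptx3 mutant against control, 1 to 4 in Ptx3 against other LECs, 1 to 2 in collecting, 0 to 1 for the LEC against BEC genotype difference and 3 to 4 in valve.

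Directions of values that had not passed reversed as follows. Mutant against control, Nfatc1 in BECs went to 0.13, Prox1 in LECs to -0.17 and Prox1 in Ptx3 LECs to -0.27 with the plate series block. Tbx1 in BECs went to 0.17 with LECs set without Prox1 and 0.32 with the endothelial gate. Gata2 in LECs went to -0.038 with thinned cells, -0.12 with the gate and -0.051 with first plates. Without mixed cells, Gata2 and Tbx1 in collecting LECs went to -0.55 and -0.15. Gata2 in valve LECs went to 0.17 with doubled limits, and Nr2f2 in valve LECs to 0.053 with LECs set without Prox1 and 0.0083 with sex as a covariate. Of the LEC against BEC genotype difference, Prox1 went to 0.020 without mixed cells, Sox18 to -0.0062 with the gate, and Tbx1 to -0.071 without Prox1 in the rule and -0.30 with the gate. In collecting against other LECs, Hhex went to -0.014 with thinned cells, Prox1 to 0.10 without mixed cells, and Nfatc1 to 0.0036 with DESeq2, 0.0039 with its size factors and 0.065 without shared cells. Prox1 enters the score that defines mixed cells, so its values without them are descriptions. In valve against other LECs, Hhex went to 0.020 with DESeq2, 0.021 with its size factors and 0.0077 with thinned cells. Of the set by genotype terms, chosen after seeing the data, the gate turned Nfatc1 (0.13) and Sox18 (0.080) in collecting, and Foxc2 (0.0027), Sox18 (0.16) and Tbx1 (0.28) in valve LECs.

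Leaving out 1 mouse turned these, with their lowest and highest values. Mutant against control in BECs, Foxp2 ranged from -2.17 to 0.081, Gata2 from -0.66 to 0.18 and Tbx1 from -1.36 to 0.17. In LECs, Gata2 ranged from -0.32 to 0.68, Nr2f2 from -0.52 to 0.048, Sox18 from -0.29 to 0.12 and Tbx1 from -0.91 to 0.050. In Ptx3 LECs Foxp2 ranged from -2.81 to 1.02. In collecting LECs, Gata2 ranged from -0.46 to 1.36, Sox18 from -0.53 to 0.15 and Tbx1 from -0.19 to 1.04. In valve LECs, Foxc2 ranged from -0.10 to 0.84, Nr2f2 from -0.61 to 0.92, Sox18 from -0.55 to 0.12 and Tbx1 from -1.16 to 0.21. Gata2 in LEC against BEC ranged from -0.12 to 0.012, Foxp2 in the genotype difference from -1.06 to 1.36, Nfatc1 in collecting against other LECs from -0.13 to 0.013, and Hhex in valve against other LECs from -0.20 to 0.20.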
